A study of Mus musculus with 6 samples.

Results

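The basement membrane and anchoring collagens taken here are 10 genes, Col4a1 to Col4a6, Col7a1, Col15a1, Col17a1 and Col18a1, chosen by name among the 23934 genes of the deposited table. Their transcripts were measured by RNA sequencing of sorted mouse skin cells at day 50 in 3 Zfp750 knockout libraries (S5, S6 and S7) and 3 control libraries (S2, S3 and S4). Zfp750 encodes a nuclear regulator of keratinocyte maturation. The knockout mice are labelled as fl/fl at this gene, which the genotype field calls ZNF750, and as tdTomatoe+. The controls are labelled as wt/fl in 2 cases and wt/wt in 1. All 6 carry Lrig1-CreER or Lrig1-CreERT2 +/-, a tamoxifen-activated recombinase driven from a gene of the upper hair follicle, and all 6 received 4-hydroxytamoxifen as pups, on days 4 to 7 or 5 to 8. Both groups are described as expressing the sorting marker tdTomato, while Rosa26, a usual site of that reporter, is labelled -/- in all 3 knockouts and in 2 controls, and +/- in 1 control. How the sorted cells carried the marker cannot be read from these labels. The columns of the table give a group but no mouse, so the libraries are named by the numbers in those columns.

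Type IV collagens form the sheet-like network of basement membranes. Their 6 chains are encoded as head-to-head gene pairs: Col4a1 with Col4a2, Col4a3 with Col4a4, and Col4a5 with Col4a6. The alpha-1 and alpha-2 chains assemble together in nearly all basement membranes, whereas the alpha-3, alpha-4 and alpha-5 chains form a network known best from kidney, and alpha-5 with alpha-6 a network of epithelia and smooth muscle. Type VII collagen builds the anchoring fibrils that fasten the epidermal basement membrane to the dermis. Type XVII is a transmembrane collagen of hemidesmosomes, the adhesion sites of basal keratinocytes. Types XV and XVIII carry sugar side chains and lie where basement membranes meet the underlying matrix, and type XVIII is the source of endostatin.

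All 10 genes passed the filter on low values, 9 in all 6 libraries and Col17a1 in 5. In the limma test, 1 rose in the knockout (Col7a1), 5 fell (Col4a3, Col4a4, Col4a5, Col15a1 and Col18a1) and 4 did not pass (Col4a1, Col4a2, Col4a6 and Col17a1). Over all 15935 genes tested, 6.71% were called, 4.12% higher and 2.59% lower. The median log2 fold change was -1.33 over the 10 collagens and 0.014 over all genes tested. Groups did not overlap for 7 of the 10, against 28.8% of genes tested, and 7 of the 10 had an unadjusted p under 0.05, against 23.2%. The call count among the 10 was 3 without S6, without S7 or without S2, 5 without S3 or S4, and 6 without S5.

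**Figure D1:**
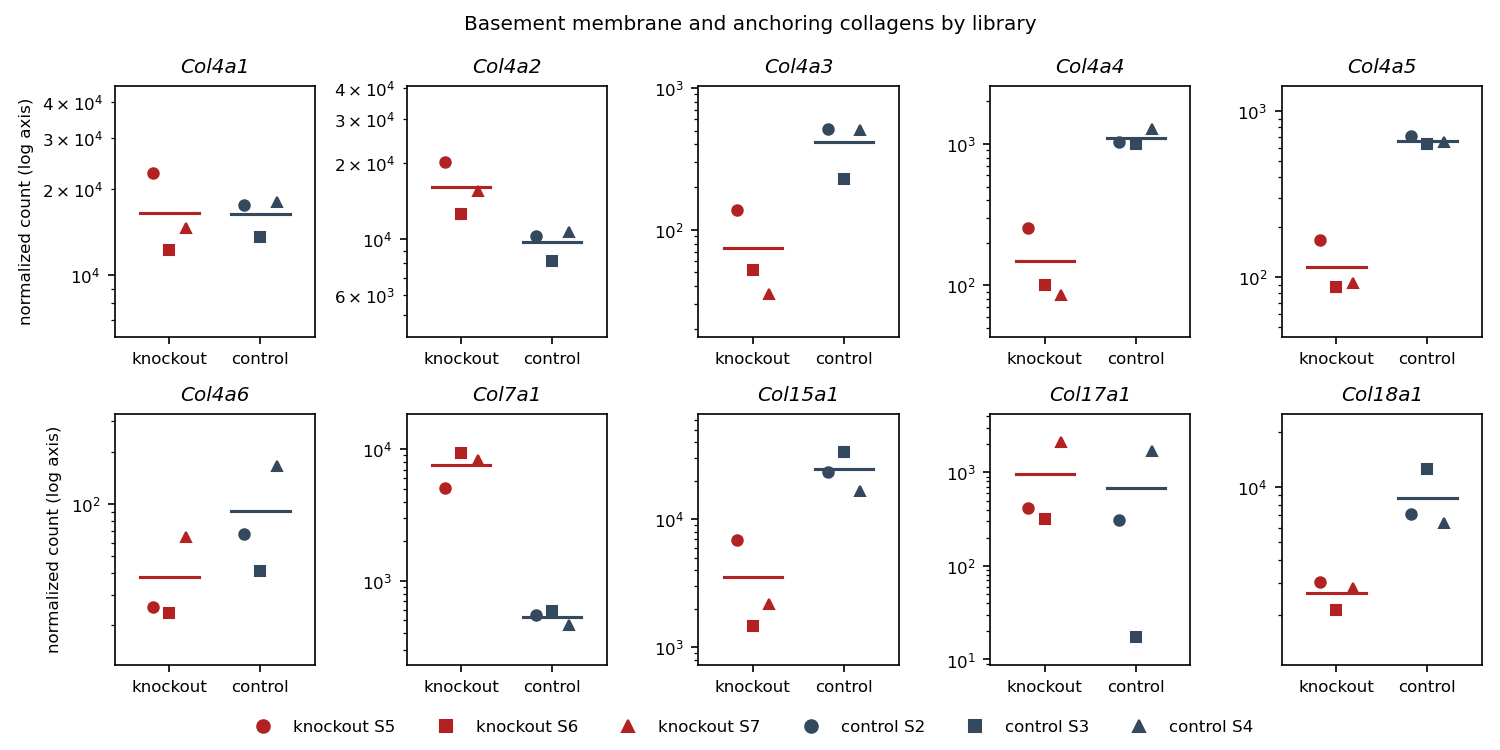
Normalized counts of the 10 collagen genes (log axes, which differ between panels) in 3 knockout libraries (red) and 3 control libraries (dark blue); symbols are single libraries and lines are group means. Col7a1 lies higher in all 3 knockout libraries, at 5049 to 9287 against 459 to 593 in controls, and Col4a3, Col4a4, Col4a5, Col15a1 and Col18a1 lie lower in all 3.

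Stretches of DNA at the starts of genes that the results turn on are shown so that the pairing of the type IV genes and the upstream sequence of the risen gene and of a strongly lowered one can be read. They come from RefSeq promoters on GRCm38.p6, where 9 of the 10 genes matched by symbol, Col4a3 being the other. Capitals mark a GC box (GGGCGG) or a CCAAT box (CCAAT), on either strand. Where neither was found, the stretch is in lower case only.
Col4a1 and Col4a2, 22 bases that the annotated starts of both genes share, chr8:11312805-11312826, read on the plus strand toward Col4a2: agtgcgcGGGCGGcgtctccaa
Col4a4 and Col4a3, the 71 bases between the annotated starts, chr1:82586850-82586920, read on the minus strand toward Col4a4: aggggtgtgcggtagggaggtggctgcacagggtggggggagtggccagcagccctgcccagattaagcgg
Col7a1, 250 bases before the RefSeq start, chr9:108953336-108953585, plus strand: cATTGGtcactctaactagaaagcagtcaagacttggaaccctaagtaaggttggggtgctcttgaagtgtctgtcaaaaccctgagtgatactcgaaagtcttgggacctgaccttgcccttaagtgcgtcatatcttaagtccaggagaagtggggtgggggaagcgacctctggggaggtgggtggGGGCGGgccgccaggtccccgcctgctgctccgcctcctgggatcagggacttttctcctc
Col15a1, 250 bases before the RefSeq start, chr4:47207762-47208011, plus strand: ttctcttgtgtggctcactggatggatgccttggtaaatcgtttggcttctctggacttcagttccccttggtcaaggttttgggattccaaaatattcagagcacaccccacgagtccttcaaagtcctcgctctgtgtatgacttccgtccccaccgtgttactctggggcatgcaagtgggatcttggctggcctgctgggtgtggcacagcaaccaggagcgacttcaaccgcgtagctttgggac

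The starts of Col4a5 and Col4a6 lie 1308 bases apart on chromosome X. In the 250 bases before the start, GGGCGG was found in 5 of the 10 windows of the collagen genes (2 windows belong to Col18a1) and in 32.7% of all 32851 windows, and CCAAT in 6 of 10 and 33.8%. TATAAA was found in 1 of 10, that of Col17a1, and in 12.4% of all. TGANTCA, bound by AP-1 factors, was found in 0 of 10 and 6.75% of all, and CCNNAGGC, described for human ZNF750, in 0 of 10 and 20.4% of all. Both strands were searched, N stands for any base, and a match or its lack describes only the letters in these windows.

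Zfp750, the targeted gene, was at 4.90, 1.82 and 7.16 normalized counts in knockout S5, S6 and S7 and at 41.9, 3.75 and 314 in control S2, S3 and S4. Control S3 thus lay within the knockout range, and its label is not checked by this gene. Zfp750 did not pass the filter. Estimated reads were 5, 2 and 9 in the knockout libraries and 33, 3 and 373 in controls. Without a filter its log2 fold change was -2.13 ± 0.98 (SE, limma adjusted p = 0.275), so it gives no firm check of the other labels either. The summed fibroblast markers (10 genes) were 936557 to 1240624 in the knockout libraries and 3000642 to 8950828 in the controls, far above the summed basal keratinocyte markers (10 genes), at 3757 to 26116 in the knockout libraries and 1052 to 30372 in the controls. Control S3 had the lowest keratinocyte sum of the 6. Endothelial markers (12 genes) summed to 3155 to 10597 in the knockout libraries and 1594 to 2374 in controls. Pericyte and vascular smooth muscle markers (12 genes) summed to 19170.5 to 24183 in the knockout libraries and 13164 to 16960 in controls. All genes of these 4 lists were above 0 in every library. The fibroblast, endothelial and pericyte sums did not overlap between groups, but each of these separations rested on 1 to 3 genes. Without the fibrillar collagen genes Col1a1, Col1a2 and Col3a1, left out after their values were seen, the fibroblast sum was 143487 to 207342 in the knockout libraries and 165351 to 390828 in controls. Without Flt1 the endothelial sum was 1700.3 to 7552 in the knockout libraries and 1520.1 to 2336 in controls, and without Pdgfrb the pericyte sum was 7277 to 10554 in the knockout libraries and 5792 to 10325 in controls. All 3 of these shortened sums overlapped. The endothelial genes Vwf, Erg and Cldn5 were nonetheless also higher in every knockout library. Tek, a large part of the shortened sum, was at 941, 474 and 534 in knockout S5, S6 and S7 and 970, 588 and 1898 in control S2, S3 and S4. By limma, 5 of 11 tested endothelial genes had an unadjusted p under 0.05, against 23.2% of all genes tested. In the limma test none of the 10 keratinocyte markers was called (the smallest adjusted p stood at 0.545, and 0 had an unadjusted p under 0.05), 1 of 11 tested endothelial markers rose (Flt1), 1 of 12 pericyte markers rose (Pdgfrb) and 1 fell (Des), and 1 of 10 fibroblast markers rose (Pdgfra). Of 6 further lists, the sebocyte list had 3 of 6 tested genes higher, with sums of 6570 to 14886 in the knockout libraries and 5064 to 7102 in controls. Of these 3, Awat1 and Elovl3 passed the filter only through the knockout libraries. Fat cell markers summed to 702 to 4756 in the knockout libraries and 368 to 666 in controls, with none of 5 tested genes called (smallest limma adjusted p 0.0824, 4 at an unadjusted p under 0.05). Cidec, which gave that smallest value, also passed the filter only through the knockout libraries. The sums of the sebocyte, leukocyte, Schwann cell, skeletal muscle and upper hair follicle lists overlapped between groups. Even so, 4 of 6 tested sebocyte, 4 of 8 leukocyte and 4 of 8 Schwann cell genes had an unadjusted limma p under 0.05. For the upper hair follicle list it was 1 of 6. Leukocyte sums were 960, 2765 and 7689 in knockout S5, S6 and S7 and 202, 154 and 1886 in control S2, S3 and S4. On the upper hair follicle list Krt79 was higher in every knockout library (log2 fold change 3.43, limma adjusted p = 0.0611), and the other genes overlapped. Des is also on the skeletal muscle list, where it was the only gene called. On that list Ckm, Myh4, Ttn and Tnnt3 were likewise lower in every knockout library, and the remaining genes overlapped. By limma, 5 of 8 tested muscle genes had an unadjusted p under 0.05. The part of any of these cell types in the results below was not tested, and in such bulk samples fewer cells of a type and less RNA per cell cannot be told apart.

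**Figure D2:**
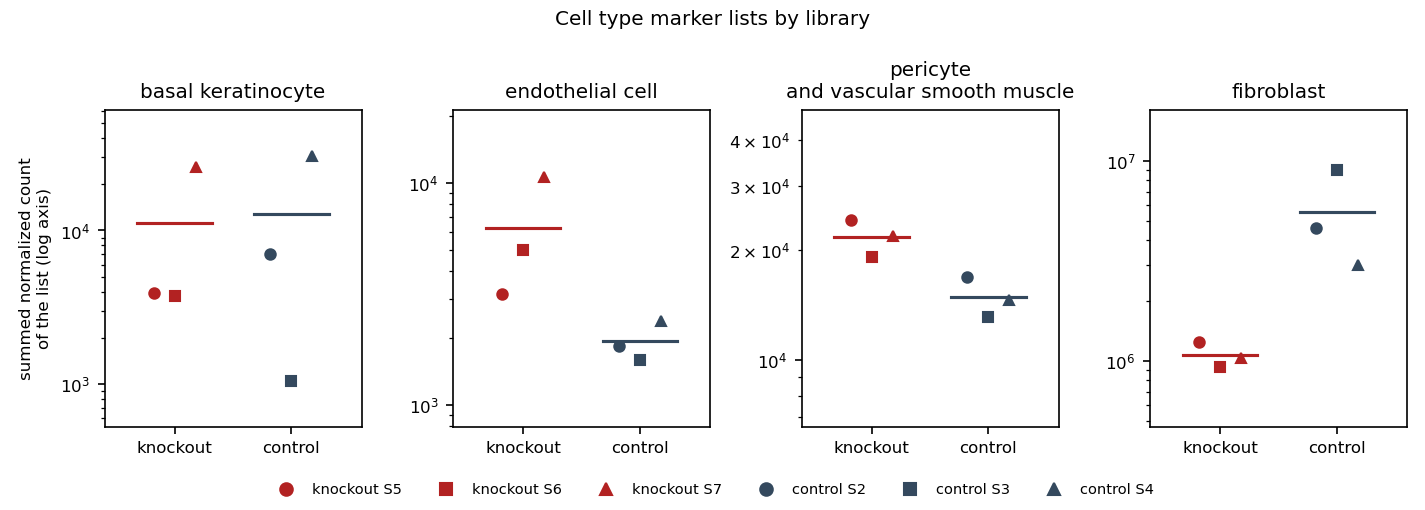
Summed normalized counts (log axes, which differ between panels) of 4 cell type marker lists in knockout (red) and control (dark blue) libraries; symbols are single libraries and lines are group means. Fibroblast sums are lower and endothelial and pericyte sums higher in all 3 knockout libraries, separations that rest on Col1a1, Col1a2 and Col3a1, on Flt1 and on Pdgfrb, while keratinocyte sums range from 3757 to 26116 in the knockout and from 1052 to 30372 in controls.

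Col7a1 (ENSMUSG00000025650; GRCm38 chromosome 9, 108953586 to 108984875, plus strand), which encodes the single chain of type VII collagen, was the 1 collagen of the set that rose. It was at 5049, 9287 and 8273 normalized counts in knockout S5, S6 and S7, and at 550.2, 593 and 459 in control S2, S3 and S4. Every knockout library thus lay above every control library. The mean was 7536 ± 2213 in the knockout and 534 ± 68.5 in controls (SD, n = 3 each), a 14.1-fold difference of means, with a log2 fold change of 3.76 ± 0.25 (SE, limma adjusted p = 0.000578). The adjusted p was 0.000855 to 0.00704 when 1 library was left out. Keratinocytes and fibroblasts are both known sources of type VII collagen. The basal keratin transcript Krt5 was at 1164, 885 and 8559 in knockout S5, S6 and S7, and at 2503, 62.5 and 11805 in control S2, S3 and S4, and its part in the Col7a1 values was not tested. Per 1000 counts of Krt5 (this and the other within-library ratios to Krt5 or Col1a1 were picked with the values known), Col7a1 had 4338, 10493 and 967 in knockout S5, S6 and S7 and 219.8, 9500.0 and 38.9 in control S2, S3 and S4, so this ratio overlapped between the groups. The gene profiles closest to that of Col7a1, by root mean square difference of centred log2 values over the 6 libraries among 10557 genes, were those of Runx3 (0.21), Ifitm1 (0.21) and Rtn4rl2 (0.22).

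Col17a1 (ENSMUSG00000025064; GRCm38 chromosome 19, 47646344 to 47692094, minus strand), the hemidesmosomal collagen, did not pass the test. It was at 418, 319.9 and 2119 normalized counts in knockout S5, S6 and S7, and at 310.1, 17.5 and 1709 in control S2, S3 and S4. Both groups held 1 high library and others several times lower, and the groups overlapped. The mean was 952 ± 1012 in the knockout and 679 ± 904 in controls (SD, n = 3 each; fitted log2 fold change 1.45 ± 1.42 SE, limma adjusted p = 0.587), and without control S3 the log2 fold change was -0.15. In each group it was highest in the library with the most Krt5. It had 359, 361 and 248 counts for each 1000 of Krt5 in knockout S5, S6 and S7, and 124, 280.0 and 145 in control S2, S3 and S4. These ratios spread 2.9-fold where Col17a1 itself spread 121-fold over the 6 libraries. The closest profiles, named here although Col17a1 was not called, were those of Tns4 (0.15), the desmosomal plakophilin gene Pkp1 (0.23) and Trim29 (0.23).

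**Figure D3:**
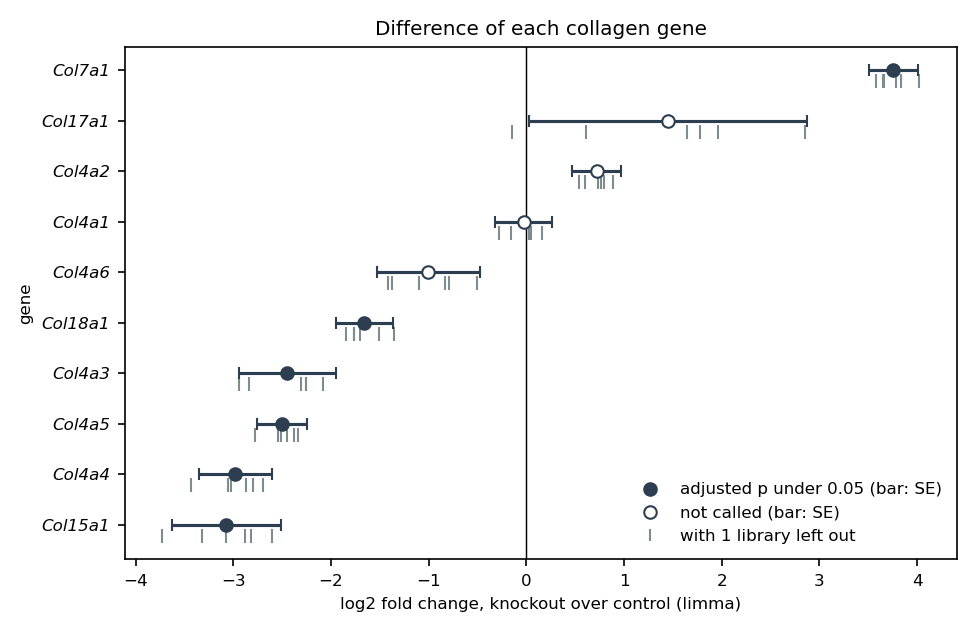
Log2 fold change of each collagen gene, knockout over control, from limma (points, with SE bars; filled where the adjusted p was under 0.05), and the values with 1 of the 6 libraries left out (grey ticks). Col7a1 stands at 3.76 and 5 genes stand between -3.07 and -1.66; the values of Col17a1 with 1 library left out reach from -0.15 to 2.85.

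The alpha-3, alpha-4 and alpha-5 chain genes of type IV collagen fell together. Col4a4 (ENSMUSG00000067158; GRCm38 chromosome 1, 82448423 to 82586849, minus strand) was at 256, 101 and 85.9 normalized counts in knockout S5, S6 and S7, and at 1033, 1002 and 1286 in control S2, S3 and S4. Its mean was 148 ± 94.1 in the knockout and 1107 ± 156 in controls (SD, n = 3 each; fitted log2 fold change -2.98 ± 0.37 SE, limma adjusted p = 0.00601). The lowest control library was thus several times above the highest knockout library.

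Col4a5 (ENSMUSG00000031274; GRCm38 chromosome X, 141475385 to 141689234, plus strand), the X-linked chain that the alpha-3 and alpha-4 chains need as partner, was at 167, 86.6 and 91.5 in knockout S5, S6 and S7, and at 710.4, 635 and 653 in control S2, S3 and S4. The control values lay within 1.12-fold of each other, the narrowest control spread among the 10 genes. The mean was 115 ± 44.9 in the knockout and 666 ± 39.6 in controls (SD, n = 3 each; -2.50 ± 0.26 SE, limma adjusted p = 0.00299). Calls of Col4a4 and Col4a5 held with any 1 library left out, at adjusted p-values of 0.00161 to 0.0383 and 0.00190 to 0.0234. The closest profiles to Col4a5 were those of the kinase gene Hunk (0.17), the cyclin gene Ccnd1 (0.23) and Opcml (0.26), and Opcml was also the closest to Col4a4 (0.29) and to Col15a1 (0.34).

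Col4a3 (ENSMUSG00000079465; GRCm38 chromosome 1, 82586921 to 82722059, plus strand), which shares its start region with Col4a4, was at 137, 52.0 and 35.0 in knockout S5, S6 and S7, and at 516, 227 and 507 in control S2, S3 and S4. The groups did not overlap, with control S3 the lowest control and knockout S5 the highest knockout. The mean was 74.7 ± 54.7 in the knockout and 417 ± 164 in controls (SD, n = 3 each; -2.45 ± 0.50 SE, limma adjusted p = 0.0310). The call was lost without S6, S7, S2 or S4, at limma adjusted p-values of 0.124, 0.0878, 0.132 and 0.0573, and with libraries scaled to a common total (0.0508). The closest profiles to Col4a3 were less close than for the other called collagens: Anxa3 (0.42), Kank4 (0.45) and Slc16a7 (0.45). In all 3 of these chain genes, knockout S5 had the highest value of the knockout libraries. Their summed count was 560, 239.7 and 212 in knockout S5, S6 and S7 and 2259, 1863 and 2446 in control S2, S3 and S4.

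Col4a6 (ENSMUSG00000031273; GRCm38 chromosome X, 141165403 to 141474076, minus strand), the head-to-head partner of Col4a5, had the lowest mean of the 10 in both groups. It was at 25.5, 23.7 and 64.4 in knockout S5, S6 and S7, and at 67.4, 41.2 and 166 in control S2, S3 and S4, and the groups overlapped. The mean was 37.9 ± 23.0 in the knockout and 91.4 ± 65.6 in controls (SD, n = 3 each). The log2 fold change was -1.0 ± 0.52 (SE, limma adjusted p = 0.299).

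Col4a1 (ENSMUSG00000031502; GRCm38 chromosome 8, 11198423 to 11312826, minus strand) and Col4a2 (ENSMUSG00000031503; GRCm38 chromosome 8, 11312805 to 11449287, plus strand), the chains of the general type IV network, were not called, and only Col4a2 had groups that did not overlap. Col4a1 was at 22701, 12208.5 and 14583 in knockout S5, S6 and S7, and at 17605, 13568 and 17931 in control S2, S3 and S4. Its groups overlapped, with means of 16498 ± 5502 in the knockout and 16368 ± 2430.4 in controls (SD, n = 3 each; fitted log2 fold change -0.03 ± 0.29 SE, limma adjusted p = 0.966, and 0.29 with libraries scaled to a common total). Col4a2 was at 20323, 12634 and 15528 in knockout S5, S6 and S7, and at 10273, 8147 and 10687 in control S2, S3 and S4. All 3 knockout values of Col4a2 lay above all 3 controls, with means of 16162 ± 3883 in the knockout and 9702 ± 1362 in controls (SD, n = 3 each; 0.72 ± 0.25 SE, limma adjusted p = 0.137).

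The ratio of Col4a1 to Col4a2 within a library, which does not depend on how libraries are scaled, was 1.12, 0.966 and 0.939 in knockout S5, S6 and S7, and 1.71, 1.67 and 1.68 in control S2, S3 and S4. The control ratios lay within 2.91% of each other, and the lowest control ratio was 1.49-fold the highest knockout ratio. The mean ratio was 1.01 ± 0.0958 in the knockout and 1.69 ± 0.0252 in controls (SD, n = 3 each; log2 difference -0.75, exact 2-sided permutation p = 0.1, the smallest that 3 against 3 allow; 0.2 adjusted over the 3 pairs). The coding transcripts are 6615 and 6450 bases long, and the genes overlap by 22 bases at their starts on opposite strands. The sources used here do not state a strand setting, so reads from the shared bases cannot be told apart.

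**Figure D4:**
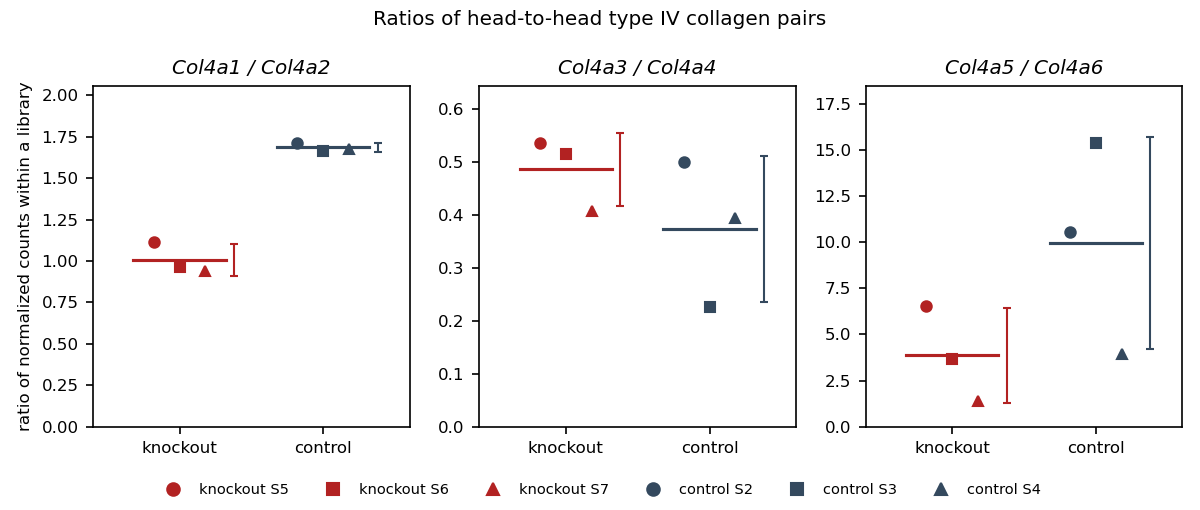
Ratio of normalized counts within each library for the 3 head-to-head type IV pairs, in knockout (red) and control (dark blue) libraries; symbols are single libraries, lines are means and bars beside them are SD (n = 3). The Col4a1 to Col4a2 ratio is 0.939 to 1.12 in the knockout and 1.67 to 1.71 in controls, and the other pairs overlap.

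For the other pairs the ratio overlapped between groups. Col4a3 to Col4a4 was 0.535, 0.514 and 0.407 in knockout S5, S6 and S7, and 0.499, 0.227 and 0.394 in control S2, S3 and S4 (log2 difference 0.44, exact permutation p = 0.2, adjusted 0.2). Col4a5 to Col4a6 was 6.54, 3.65 and 1.42 in knockout S5, S6 and S7, and 10.5, 15.4 and 3.94 in control S2, S3 and S4 (log2 difference -1.41, exact permutation p = 0.2, adjusted 0.2). In both groups this last ratio was lowest in the library with the most Krt5, S7 and S4.

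Col15a1 (ENSMUSG00000028339; GRCm38 chromosome 4, 47208161 to 47313167, plus strand) and Col18a1 (ENSMUSG00000001435; GRCm38 chromosome 10, 77052178 to 77166548, minus strand), the paired types of the basement membrane border, both fell. Col15a1 was at 6938, 1452 and 2154.5 in knockout S5, S6 and S7, and at 23509, 33379.9 and 16592 in control S2, S3 and S4. The groups did not overlap, and knockout S5 was several times above the other knockout libraries. The mean was 3515 ± 2986 in the knockout and 24494 ± 8437 in controls (SD, n = 3 each; fitted log2 fold change -3.07 ± 0.56 SE, limma adjusted p = 0.0219). The call was lost without S6, S7, S2 or S3, at limma adjusted p-values of 0.0821, 0.0808, 0.0923 and 0.0664.

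Col18a1 was at 3016, 2122 and 2790.1 in knockout S5, S6 and S7, and at 7082, 12625 and 6321 in control S2, S3 and S4. Its knockout values lay within 1.42-fold of each other, and control S3 was the highest. The mean was 2643 ± 465 in the knockout and 8676 ± 3441 in controls (SD, n = 3 each; -1.66 ± 0.29 SE, limma adjusted p = 0.0186), a call lost without S6, S7 or S2 (0.0884, 0.0616 and 0.0654). The closest profiles to Col18a1 were those of Gprin1 (0.13), the fibrillar collagen gene Col3a1 (0.16) and Pkia (0.16).

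The fibrillar collagen gene Col1a1, a main collagen of fibroblasts, was also lower in every knockout library but was not called (log2 fold change -2.67, limma adjusted p = 0.237). So were Col1a2 (-2.71, limma adjusted p = 0.131) and Col3a1 (-1.68, 0.325). These log2 fold changes lie between those of Col15a1 (-3.07) and Col18a1 (-1.66), so the lack of a call does not show a smaller fall. Per 1000 counts of Col1a1, Col15a1 had 17.0, 4.35 and 5.38 in knockout S5, S6 and S7 and 10.9, 7.30 and 11.6 in control S2, S3 and S4, which overlapped. Col18a1 had 7.40, 6.35 and 6.97 in the knockout libraries and 3.29, 2.76 and 4.42 in the controls, so relative to Col1a1 it lay higher in every knockout library.

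Together the 10 genes made up 0.353%, 0.248% and 0.284% of the summed counts in knockout S5, S6 and S7, and 0.317%, 0.272% and 0.348% in control S2, S3 and S4, which overlapped. These shares also depend on the other genes in the library sums. Col1a1 alone was at 333927 to 407741 in the knockout libraries and 1430000 to 4570000 in controls. The make-up of the summed count of the 10 genes differed. Col4a1 and Col4a2 held 67.9% ± 4.37 of it in the knockout and 42.3% ± 10.3 in controls (SD, n = 3 each, as for the other shares). Col15a1 held 6.75% ± 4.36 in the knockout and 38.4% ± 9.03 in controls. Col7a1 held 17.0% ± 7.91 in the knockout and 0.851% ± 0.0388 in controls, and Col18a1 5.58% ± 0.498 in the knockout and 13.6% ± 3.82 in controls. No test was made of these shares.

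**Figure D5:**
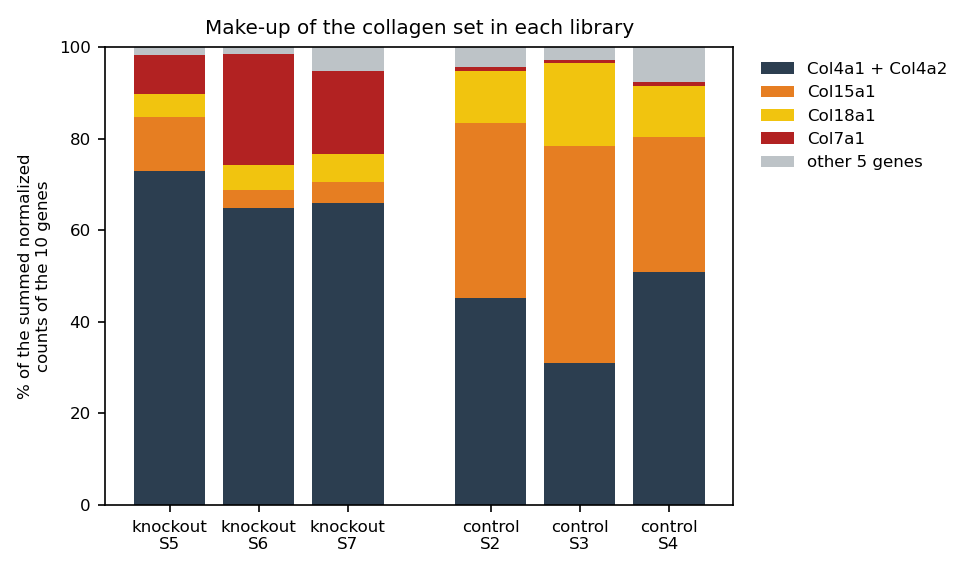
Share of the summed normalized counts of the 10 collagen genes held by each gene or gene pair, one stacked bar for each library, knockout on the left and control on the right. Col15a1 holds 3.79% to 11.8% in the knockout and 29.5% to 47.5% in controls, and Col7a1 holds 8.55% to 24.3% in the knockout and under 1% in controls.

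Levels of different genes were compared for each 1000 bases of the longest coding transcript. In the knockout, Col4a2 (2506 ± 602) and Col4a1 (2494 ± 832 normalized counts for each 1000 bases; SD, n = 3) came first and overlapped. Col7a1 (815 ± 239), Col15a1 (680 ± 577), Col18a1 (472 ± 83.1) and Col17a1 (170.4 ± 181) followed, each overlapping the next. Col4a5 (17.6 ± 6.87), Col4a4 (14.6 ± 9.31), Col4a3 (8.73 ± 6.39) and Col4a6 (5.70 ± 3.46) came last, again each overlapping the next and all below the 6 genes before them. In controls, Col15a1 (4736 ± 1631) lay apart at the top, above Col4a1 (2474 ± 367), Col18a1 (1551 ± 615) and Col4a2 (1504 ± 211), of which neighbours overlapped. Col17a1 (121 ± 162), Col4a4 (109.5 ± 15.4) and Col4a5 (102 ± 6.06) overlapped in turn, then came Col7a1 (57.8 ± 7.40) with Col4a3 (48.7 ± 19.2), which overlapped, and Col4a6 (13.8 ± 9.87) last. Col7a1 thus ranked 8 of 10 in controls and 3 of 10 in the knockout.

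Among other genes of the basement membrane scaffold, 3 of 26 tested rose (Hmcn1, Lamc3 and Fbln2), 2 fell (Fras1 and Sparc) and 21 were not called (median log2 fold change 0.21). Of the 26, 9 had an unadjusted p under 0.05. To set beside this list and those below, 4.12% of all genes tested were called higher and 2.59% lower. Of all genes tested, 23.2% had an unadjusted p under 0.05, and their median log2 fold change was 0.014. Hmcn1, encoding the extracellular protein hemicentin 1, was at 8485, 8391 and 9064 in knockout S5, S6 and S7, and at 2669, 2302 and 2466 in control S2, S3 and S4 (1.80 ± 0.15 SE, limma adjusted p = 0.00151). The laminin chain gene Lamc3 was at 7262, 11884 and 6835 in the knockout and 1755, 421 and 873 in controls (3.26 ± 0.48, adjusted p = 0.0103; 0.0574 without S6). Fras1, whose protein helps bind epidermis to dermis below the basement membrane and was among the 3 profiles closest to Col4a4, was at 75.5, 40.1 and 46.1 in the knockout libraries and at 424, 531 and 665 in controls (-3.14 ± 0.28, adjusted p = 0.00171). Fbln2, the fibulin 2 gene, averaged 45003 ± 6589 in the knockout and 19840 ± 900 in controls (SD, n = 3 each), a call (limma adjusted p = 0.0384) lost when any 1 library was left out, at up to 0.181. Sparc, a matrix protein gene that fibroblasts express strongly, averaged 78170 ± 13385 in the knockout and 504299 ± 217064 in controls (SD, n = 3 each; -2.60 ± 0.61 SE, limma adjusted p = 0.0483), a call lost without S5, S6, S7, S2 or S3 (up to 0.201). The laminin and linker genes Lamc1 (0.03 ± 0.25, adjusted p = 0.952), Nid1 (-0.19 ± 0.36, 0.792) and the perlecan gene Hspg2 (0.08 ± 0.30, 0.899) were not called. Other laminin genes that were not called still had groups that did not overlap. Lama2 (0.67 ± 0.28, limma adjusted p = 0.204) and Lamb1 (0.57 ± 0.24, 0.214) lay higher in every knockout library, and Lamb2 (-0.60 ± 0.19, 0.112) lower.

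Of 13 tested hemidesmosome and anchoring fibril partner genes none was called by limma, the smallest adjusted p being 0.200. Of these 13, 1 had an unadjusted p under 0.05, against 23.2% of all genes tested. The most abundant of them were the plectin gene Plec, at 18039 ± 2142 in the knockout and 12388 ± 2074 in controls (0.55 ± 0.23 SE, limma adjusted p = 0.200), and the integrin beta-1 gene Itgb1, at 11444 ± 660 in the knockout and 8718 ± 1222 in controls (SD, n = 3 each; 0.40 ± 0.19 SE, 0.266). Of 13 tested collagen receptor genes 2 rose and 1 fell (median 0.18), and 3 had an unadjusted p under 0.05. Itga2, the integrin alpha-2 chain, was at 143, 82.9 and 132 in the knockout libraries and at 432, 417 and 392 in controls (-1.75 ± 0.23, limma adjusted p = 0.00711). Its relative Itga1, whose product binds type IV collagen, rose (1.09 ± 0.17, 0.0133), as did Itga11 (1.55 ± 0.29, 0.0246). The Itga1 call was lost without S6, S7 or S2 (adjusted p up to 0.0719) and the Itga11 call without S5, S6, S7 or S2 (up to 0.106).

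Of 29 tested genes for folding, secretion and crosslinking of collagen chains 2 rose, 2 fell and 25 were not called (median -0.17). However, 17 of the 29 had an unadjusted p under 0.05, against 23.2% of all genes tested. P4ha3, a prolyl hydroxylase subunit, averaged 602 ± 149 in the knockout and 28.3 ± 12 in controls (SD, n = 3 each; 4.05 ± 0.29 SE, limma adjusted p = 0.000782). P4ha2, another such subunit, averaged 853 ± 81.6 in the knockout and 2816 ± 1228 in controls (SD, n = 3 each; -1.62 ± 0.32, 0.0289), a call lost without any 1 library other than S4 (adjusted p up to 0.121). P3h2, which hydroxylates type IV chains, rose (1.90 ± 0.32, 0.0162) and Creb3l1, a transcription factor of collagen secretion, fell (-2.12 ± 0.38, 0.0213), and both calls were lost without S6, S7 or S2 (up to 0.0750 and 0.0977). The crosslinking peroxidase gene Pxdn, counted with the basement membrane scaffold genes and not among these 29, was not called (0.78 ± 0.28, 0.147).

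A further list took proteases that cut basement membrane collagens together with inhibitors of proteases. Of its 24 tested genes 7 rose, 1 fell and 16 were not called (median 0.70), and 14 had an unadjusted p under 0.05. Of those that rose, Mmp10, Mmp12 and Mmp13 passed the filter only through the knockout libraries. They were not tested when any 1 knockout library was left out. Without a filter, 6 of 25 rose and the median was 0.41. Mmp9, a gelatinase that cuts type IV collagen, was at 952, 1007 and 1785 in the knockout libraries and at 10.2, 15.0 and 18.5 in controls (5.68 ± 0.29 SE, limma adjusted p = 0.000239). Mmp10 was at 73.5, 302 and 186 in the knockout libraries and listed at 0 in all 3 controls (adjusted p = 0.00443). The collagenase gene Mmp13 and the protease inhibitor gene Timp1 also rose, by 7.40 ± 0.19 (9.26e-06) and 2.77 ± 0.28 (0.00274) on the log2 scale. Mmp13 was at 2702, 2880 and 3306 in knockout S5, S6 and S7, and at 7.62, 11.2 and 6.73 in control S2, S3 and S4. The control values of Mmp13 and of Mmp9 lay near the added pseudocount of 9.15, so the sizes of both log2 fold changes depend on that setting. Timp3, an inhibitor bound to the matrix, was the gene that fell (-1.67 ± 0.26, 0.0120), a call lost without S6 or S2.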

How the data were processed

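The authors deposited 1 table of normalized counts, treated here as a signal: estimated reads divided by a size factor for each library, judged from the values, of which 78.7% to 81.2% per library were whole reads within 0.05. Partek 9.0.20.0202 and TopHat2 2.1.0 appear in the submitters' processing notes. The sources used here state no build, annotation or strand setting. Depth was about 16940619 to 20222372 estimated reads in knockout and 15310161 to 20705441 in control libraries.

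Tests used limma 3.58.1 (R 4.3.3, with trend, 2-sided) on log2(value + 9.15), which understates changes of low genes, for the 15935 genes with at least 1 per 1000000 in 3 or more libraries. P-values were adjusted by Benjamini-Hochberg over all of them and called under 0.05. Ratios of partner genes were compared by exact permutation. Alternatives changed the pseudocount, filter, scaling, trend or library set. Count models were not used, since the values are whole reads only in part. Nothing states that libraries are separate mice, so p-values measure the spread between samples. Transcript lengths and gene starts are from GENCODE M21 on GRCm38. All 10 collagens are named, with up to 4 called genes by adjusted p from each pathway list (where none was called, the 2 most abundant) and the 3 closest profiles. Sparc, Timp3, Mmp12, Lamc1, Lama2, Lamb1, Lamb2, Nid1, Hspg2, Pxdn, Krt5, Col1a1, the single genes named from the marker lists and the profiles close to Col17a1 were added after their values were seen. Genes and lists were chosen with earlier results of these data known.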

Additional observations from a re-analysis of the deposited data

How the results depend on the processing

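Directions and calls of Col7a1, Col4a4 and Col4a5 were the same under each alternative run: pseudocounts of 0.1 or 2 per 1000000, no filter, a mean of at least 5 per 1000000, scaling to a common total or upper quartile, no trend, and each library left out. Scaling to a common total moved the median log2 fold change by 0.31. It gave 1057 genes higher (78.9% of calls, against 61.4%), turned Col4a1 to 0.29, left Col4a3 at -2.16 but not called, and called 7 folding and crosslinking genes and 2 hemidesmosome genes. Without a filter 3 scaffold genes were called. Col4a6 was not tested with the filter on the mean. With 1 library left out, genes called ranged from 270 to 1237 (179 to 697 higher, 74 to 540 lower), collagens called from 3 to 6, and log2 fold changes from -0.28 to 0.16 for Col4a1, -2.94 to -2.08 for Col4a3, -3.73 to -2.60 for Col15a1, -1.85 to -1.35 for Col18a1 and -0.15 to 2.85 for Col17a1. Col15a1 and Col18a1 lost their calls only in such leave-outs. The cause was not tested. No paired analysis was possible because the columns carry no replicate numbers of the labels: their own numbers run from 2 to 4 in controls and 1 to 3 in the knockout, 2 of them recur in both groups, and what they mean is not stated, so they were not used as pairs.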
